A study of Mus musculus with 18 samples.

Results

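The arrays compared here set myeloid cells of the early tissue capsule, 7 days after a sterile foreign object was placed in the peritoneal cavity, against the cells washed from the cavity at day 4. The arrays were chosen by their labels: both capsule day 7 arrays and both lavage day 4 arrays, 4 of the 18 arrays of the series, read across 10806 genes. All mice were MacGreen animals on the C57Bl/6J strain, aged 10 to 16 weeks, a reporter line whose EGFP is under the Csf1r promoter and marks myeloid cells, and all 4 arrays came from animals that carried an implant. Lavage cells were sorted for bright EGFP straight from the peritoneal exudate. Capsule cells came from objects that had been floating free in other mice, and they were digested with collagenase before the same sort, a step that the lavage cells did not have. Place, day and digestion therefore differ together in this comparison and cannot be told apart. Cells were pooled before RNA extraction. No label states that the pair of arrays in a group comes from separate mice, so a p-value here reflects array-to-array spread that may be purely technical. With 2 arrays per group, precision is limited.

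In the peritoneal foreign body response, an implanted object first draws neutrophils and monocytes into the cavity, while the resident macrophages that normally live there, which depend on the transcription factor Gata6, become scarce in the fluid. Cells then settle on the object, and macrophages within the layer can fuse, release proteases and growth factors, and take part in building a fibrous capsule. Neutrophils and monocytes of this reporter line can carry the EGFP signal as well, so a bright gate does not hold macrophages alone.

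Levels are normalised log2 intensities, and a difference is the capsule day 7 mean minus the lavage day 4 mean, so that 1 unit is a doubling. A gene is said to have risen or fallen where limma's test, adjusted by Benjamini-Hochberg over all genes tested, gave an adjusted p under 0.05. A gene that no array of a group detected (detection p under 0.05) is given as at least N-fold different: the mean of the group that detected it is set against a floor, which on each array is the lowest signal of any detected probe or the gene's reading there if higher. Mean intensity was 1007 and 1053 on the lavage arrays and 744 and 805 on the capsule arrays, with 16692 to 17360 probes detected per array. The 2 arrays of a group correlated at 0.989 to 0.993 across genes, which are not independent replicates. Of 17 measured genes of broad myeloid identity, 12 did not pass, 4 fell and 1 rose, with a median of -0.18. Their differences ran from -3.90 (Cx3cr1) to 1.03, and 6 fell with median scaling in place of quantile normalisation. Among those that did not pass, Lyz2 differed by -0.25 (adjusted p 0.16). The transcription factor gene Spi1 differed by -0.24 (adjusted p 0.358) and the lipopolysaccharide co-receptor gene Cd14 by -0.04 (adjusted p 0.906). The reporter's own promoter gene, Csf1r, was not analysed here.

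Some genes of the sex chromosomes differed between the groups. Eif2s3y, a Y-linked translation factor gene, read 5.05 and 6.07 on the lavage arrays and 10.31 and 11.04 on the capsule arrays, while Kdm5d, also Y-linked, read 8.45 and 9.07 and then 7.33 and 8.13. Uty, a further Y-linked gene, read 5.84 and 5.73 at lavage day 4 and 6.05 and 5.45 in the capsule and did not pass (adjusted p 0.945). Xist, the X-inactivation transcript, read 8.60 and 8.33 at lavage day 4 and 9.94 and 9.79 in the capsule. The labels give no sex, and the part of the animals' sex in the results below was not tested.

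Of the 10806 genes tested, 2990 (27.7%) passed the threshold, 1378 (12.8%) higher and 1612 (14.9%) lower in the capsule. In all 2990, both arrays of one group lay above both of the other, as they did in 7163 of the 10806 genes (66.29%) whether or not the test passed, so a lack of overlap alone sets no gene apart. At least a 2-fold rise was seen in 617 of them and at least a 2-fold fall in 553; 73 rose and 32 fell by at least 8-fold. Lavage day 4 did not detect 165 of the risen genes, and capsule day 7 did not detect 157 of the fallen genes. Leaving out replicate 1 of lavage day 4 brought the changed genes to 1864. With median scaling in place of quantile normalisation, 4286 genes passed, 810 higher (18.9% of the calls, against 46.1%) and 3476 lower, and the median difference of all genes moved from -0.03 to -0.29. List medians given below are read beside these values. Against all 10 lavage arrays of the series, both capsule day 7 arrays lay above every one for 914 of the risen genes and below every one for 816 of the fallen genes. Over all genes, called or not, these counts were 1252 and 1293.

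**Figure D1:**
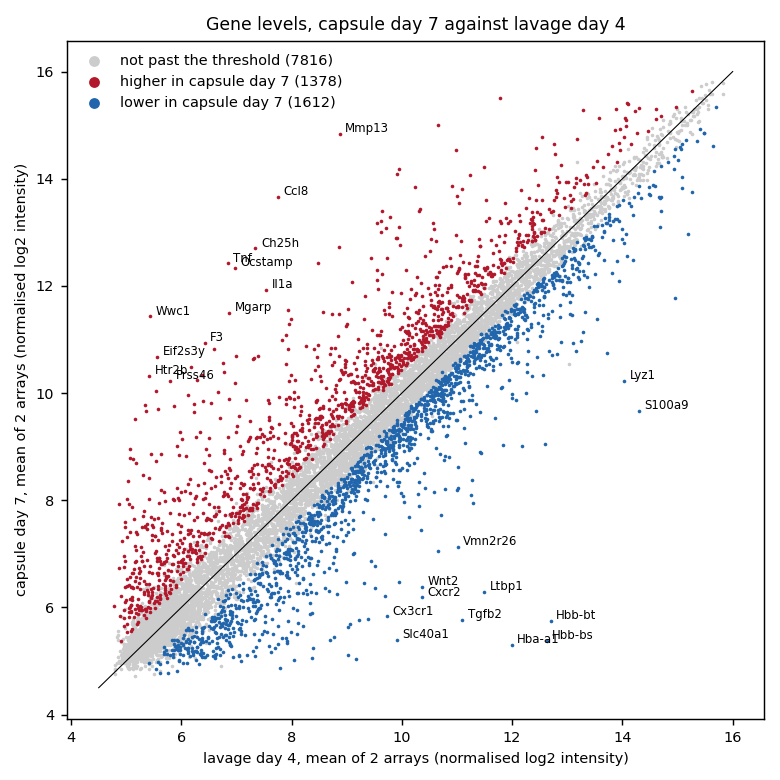
Mean level of each of the 10806 genes at capsule day 7 (vertical) against lavage day 4 (horizontal), both in normalised log2 intensity and each a mean of 2 arrays. Red points are the 1378 genes that rose and blue points the 1612 that fell, grey points did not pass, the line marks equal levels, and the named genes are the 12 largest rises and 12 largest falls.

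Inflammatory mediators stood far higher in the capsule. Of 16 measured genes for inflammatory cytokines and enzymes, 13 rose and 1 fell, with a median difference of 2.53 (2.16 with undetected genes at their bound) against -0.03 over all genes. Tnf, the gene of tumour necrosis factor, read 6.67 and 7.03 on the lavage arrays and 12.62 and 12.22 on the capsule arrays, a difference of 5.57 (SE 0.27, adjusted p 1.26e-08). Il1a, the alarm cytokine interleukin 1 alpha, read 7.71 and 7.36 in lavage and 12.22 and 11.62 in the capsule (difference 4.38, SE 0.30, adjusted p 2.14e-07). For both genes the capsule arrays lay more than 3 units above the lavage arrays, and the groups did not overlap. Lif, a cytokine of the interleukin 6 family, read 6.03 and 5.70 and then 9.87 and 9.64, and 1 of the 2 lavage arrays detected it (difference 3.89, SE 0.20, adjusted p 1.67e-08). Ptgs2, the inducible cyclooxygenase gene that starts prostaglandin synthesis, was not detected on either lavage array. It read 9.42 and 9.60 in the capsule and was at least 13.7-fold higher there (adjusted p 1.05e-07). The member that fell was Csf1, the growth factor of the macrophage lineage, at 8.68 and 9.54 in lavage and 7.85 and 6.16 in the capsule (difference -2.11, SE 0.50, adjusted p 0.00652). No member fell by the test when capsule day 7 replicate 2 or lavage day 4 replicate 2 was left out, and a second probe of Csf1 read -0.49 (adjusted p 0.164).

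Many target genes of the transcription factor NF-kB, some of which restrain its own activity, rose with the cytokines. Of 19 measured genes on the list called NF-kB feedback here, 11 rose and 1 fell, with a median of 1.24. Besides inhibitors, the list holds NF-kB subunit genes such as Rel and Nfkb2 and general targets such as Icam1 and Sod2. Tnfaip3, the gene of the ubiquitin editor A20, read 9.39 and 9.86 in lavage and 13.42 and 13.02 in the capsule (difference 3.59, SE 0.22, adjusted p 8.38e-08). Nfkbiz, a nuclear member of the inhibitor family that helps turn on late cytokine genes, read 10.21 and 10.45 and then 13.59 and 13.26 (difference 3.10, SE 0.16, adjusted p 2.28e-08). Neither gene's groups overlapped. Cd83, an activation marker, rose by 2.57 and Ier3, an early stress gene, by 2.13, while Bcl3, a nuclear NF-kB cofactor, fell by 0.68 (adjusted p 0.00501). Members that did not pass include Icam1 at 0.07, Sod2 at -0.07 and Nfkb2 at -0.05.

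Immediate early transcription factors, which cells make within minutes of a stimulus, were mostly higher as well. Of 18 measured members, 12 rose and 2 fell, with a median of 1.08. Fosb read 8.17 and 8.77 in lavage and 12.47 and 12.37 in the capsule (difference 3.95, SE 0.47, adjusted p 3.49e-05). Egr2, a zinc finger factor linked to macrophage activation, rose by 1.97, the small Maf gene Maff by 1.75 and the nuclear receptor gene Nr4a2 by 1.74. Klf2, a factor that restrains inflammatory genes, went the other way, from 14.78 and 14.57 to 13.82 and 13.48 (difference -1.03, adjusted p 0.000179), and Myc fell by 1.05 (adjusted p 0.00196). Phosphatases that switch off MAP kinases followed: 4 of 9 measured rose and 0 fell, with a median of 0.81, or 0.32 without capsule day 7 replicate 1. Dusp4 was not detected in lavage, read 8.96 and 8.41 in the capsule and was at least 7.72-fold higher (adjusted p 5.04e-08). Its other probes read 3.25 (adjusted p 1.1e-06) and 0.11 (adjusted p 0.706). Dusp2 rose by 2.09 and Dusp1 by 1.05, and Dusp6 differed by -1.13 without passing (adjusted p 0.0529).

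Genes of this kind can also respond to tissue digestion. Of 12 heat shock chaperone genes, 5 rose and 1 fell, with a median of 0.32. That median was 0.03 under median scaling, where the median of all genes was -0.29, and without capsule day 7 replicate 2 the test passed 3 of them as higher and 0 as lower. Hspa1a was not detected in lavage and was at least 2.00-fold higher in the capsule (adjusted p 0.00407). Its other probe read 1.41 (adjusted p 0.000841). Hsph1 rose by 0.84 and Bag3 by 0.63, while Ahsa1 fell by 0.74 (adjusted p 0.0057). Dnajb4, a chaperone cofactor, rose by 0.90 (adjusted p 0.000832), though another of its probes read -0.11 (adjusted p 0.855). Only the capsule cells were digested, and the part of the digestion in these rises was not tested.

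**Figure D2:**
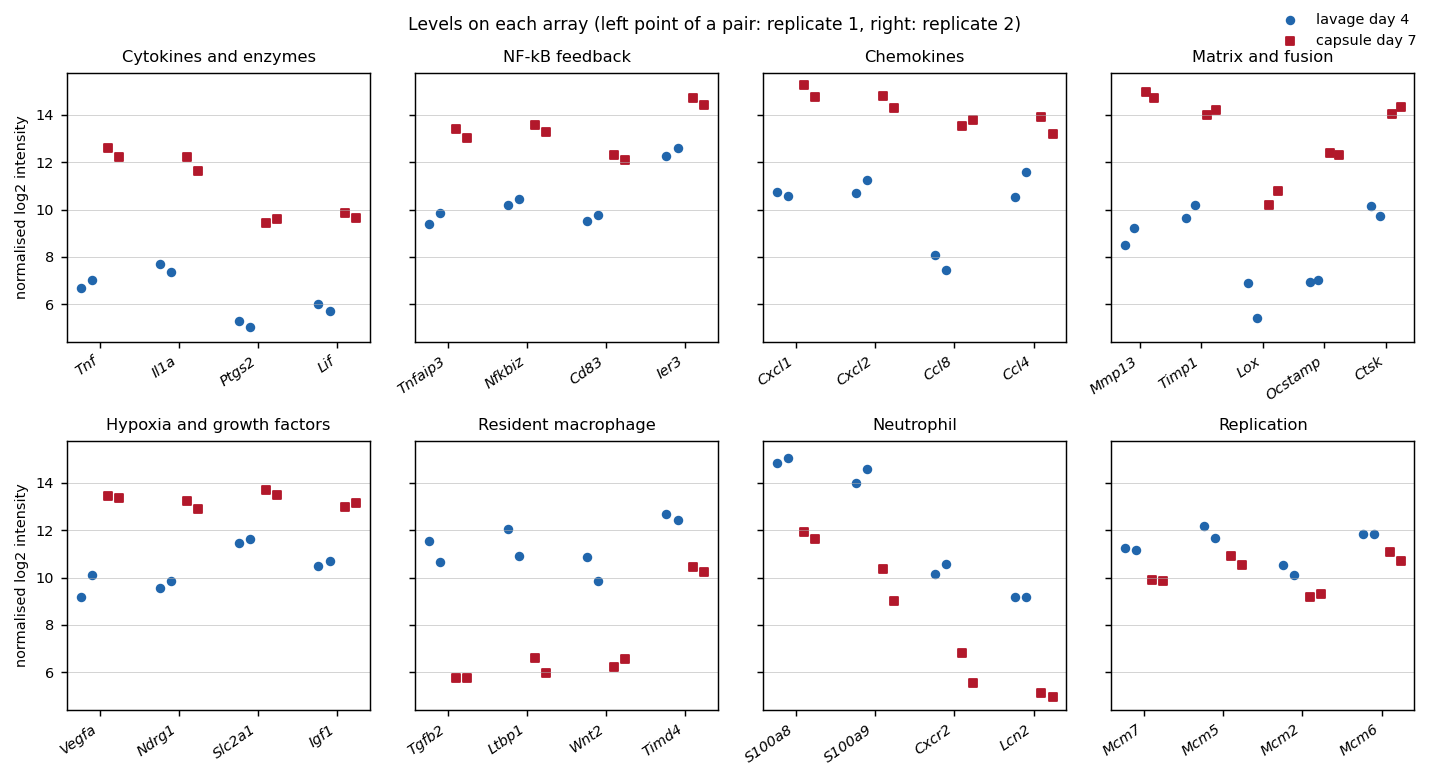
Levels of named genes on each of the 4 arrays, in normalised log2 intensity, with blue circles for lavage day 4 and red squares for capsule day 7. The capsule arrays lie above the lavage arrays for every gene in the first 5 panels and below them for every gene of the resident macrophage, neutrophil and replication panels; Ptgs2 in lavage and Lcn2 in the capsule were not detected.

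Chemokines that recruit neutrophils were bright in the capsule. Of 7 measured CXC chemokine genes, 4 rose and 0 fell, with a median of 1.09, or 1.75 without capsule day 7 replicate 2. Cxcl1, a ligand of the neutrophil receptor Cxcr2, read 10.75 and 10.58 on the lavage arrays and 15.25 and 14.75 on the capsule arrays (difference 4.33, SE 0.18, adjusted p 6.35e-09). Cxcl2, a second ligand of that receptor, read 10.71 and 11.26 and then 14.78 and 14.28 (difference 3.54, SE 0.24, adjusted p 2.33e-07). Both capsule arrays lay at least 3 units above both lavage arrays for either gene. Cxcl10, an interferon-inducible ligand of Cxcr3, was not detected in lavage and was at least 3.39-fold higher in the capsule (adjusted p 0.000179), and Cxcl16, a transmembrane chemokine, rose by 1.05. The receptor gene Cxcr2 moved the opposite way, as described with the neutrophil genes.

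The promoters of Cxcl1 and Cxcl2 are shown because these 2 ligands rose together with the NF-kB feedback genes. Each sequence is the 250 bases before the RefSeq start of the gene (build GRCm38.p6), on the strand of the gene, and capitals mark a match to the NF-kB motif, whose bases 5 and 8 were free in the search. Cxcl1 lies at chr5:90890995-90891244 and Cxcl2 at chr5:90903649-90903898, both on the plus strand.
Cxcl1: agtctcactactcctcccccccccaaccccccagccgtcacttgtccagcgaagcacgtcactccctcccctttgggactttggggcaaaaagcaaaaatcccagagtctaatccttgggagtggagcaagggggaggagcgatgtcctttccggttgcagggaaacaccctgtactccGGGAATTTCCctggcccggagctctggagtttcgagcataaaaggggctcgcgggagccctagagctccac
Cxcl2: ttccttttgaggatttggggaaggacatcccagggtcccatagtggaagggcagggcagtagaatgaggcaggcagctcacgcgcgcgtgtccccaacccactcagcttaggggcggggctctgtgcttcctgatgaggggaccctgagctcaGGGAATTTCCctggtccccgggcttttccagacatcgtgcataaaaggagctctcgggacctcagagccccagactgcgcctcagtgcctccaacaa
The motif was searched on both strands of this window in the 8784 tested genes that the promoter table holds. It was found in 3 of 6 CXC chemokine genes (Cxcl1, Cxcl2 and Cxcl10), in 5 of 15 NF-kB feedback genes and in 2 of 11 inflammatory cytokine and enzyme genes, against 1.37% of all 8784. In the feedback list, the genes with a match were Nfkbia, Rel and Tnip3, which rose, and Nfkb2 and Tnip1, which did not pass. In the cytokine list they were Il6, which rose, and Csf1, which fell. The window of Tnf or Tnfaip3 held no match, which says only that these letters are not in it. A match is a description of the sequence and no measure of binding.

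CC chemokine genes, whose products draw monocytes, eosinophils and lymphocytes, were more mixed. Of 12 measured, 6 rose and 1 fell, with a median of 1.17, and 3 rose when lavage day 4 replicate 1 was left out. Ccl8, a ligand of Ccr8 in the mouse, had one of the largest rises of all genes tested, from 8.06 and 7.44 to 13.53 and 13.79 (difference 5.91, SE 0.43, adjusted p 4.02e-07). Ccl4, an attractant of monocytes and T cells, read 10.52 and 11.57 in lavage and 13.89 and 13.21 in the capsule (difference 2.51, SE 0.36, adjusted p 0.000173). Ccl24, an eosinophil attractant, rose by 1.41 (adjusted p 0.000428). For all 3 the groups were apart. Ccl2, the main monocyte attractant, read 9.76 and 10.76 in lavage and 10.45 and 11.18 in the capsule, so its arrays overlapped (difference 0.56, SE 0.55, adjusted p 0.495). Among chemokine receptor genes, Ccrl2, a non-signalling receptor that presents the attractant chemerin, rose by 2.56 and Cxcr4, the receptor for Cxcl12, by 0.97.

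Enzymes that cut matrix, and their inhibitors, were higher in the capsule: 8 of 14 measured rose and 0 fell, with a median of 1.24. Mmp13, a collagenase, read 8.51 and 9.23 on the lavage arrays and 14.96 and 14.72 on the capsule arrays (difference 5.97, SE 0.40, adjusted p 2.01e-07). Timp1, an inhibitor of such proteases, read 9.64 and 10.20 and then 13.99 and 14.20 (difference 4.18, SE 0.29, adjusted p 2.54e-07). Protease and inhibitor thus both stood apart from lavage on both arrays. Mmp14, a membrane-bound activator of other proteases, rose by 2.80, and Mmp10, a stromelysin, rose from 6.17 and 5.83 to 8.34 and 7.96. The gelatinase gene Mmp9 read 11.39 and 11.38 in lavage and 10.70 and 10.99 in the capsule and did not pass (difference -0.54, adjusted p 0.23).

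Genes that start clotting and fibrinolysis rose beside them. F3, the gene of tissue factor, read 6.24 and 6.61 in lavage and 10.88 and 10.98 in the capsule (difference 4.51, SE 0.22, adjusted p 1.2e-08). Plau, the urokinase gene that activates plasminogen, read 9.28 and 9.58 and then 12.55 and 12.50 (difference 3.09, SE 0.15, adjusted p 1.2e-08), and F7, the clotting factor that tissue factor binds, rose by 0.84. Across the list, 6 of 10 measured genes rose and 0 fell, with a median of 0.44 (0.38 with undetected genes at their bound, 0.72 without capsule day 7 replicate 2). That count was 3 without capsule day 7 replicate 1 and likewise without either lavage array.

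Of 22 listed genes for fibroblasts and collagen 9 were measured, of which 5 rose and 0 fell, with a median of 0.98 (0.92 with undetected genes at their bound). That median was 0.42 without capsule day 7 replicate 1, 1.602 without replicate 2 and 2.02 with the deposited log2 values; 3 rose without capsule day 7 replicate 1 or without lavage day 4 replicate 1. Lox, the collagen cross-linking enzyme, was the brightest riser, from 6.90 and 5.43 (1 of 2 arrays detected) to 10.18 and 10.80 (difference 4.32, SE 0.38, adjusted p 1.98e-06). Dcn, the collagen-binding proteoglycan decorin, read 6.12 and 6.03 in lavage and 8.50 and 7.85 in the capsule (difference 2.10, adjusted p 0.000131), while its other probes read 0.35, 0.81 and 1.17, of which the last passed. The defining collagen genes were low or absent: Col1a2 and Col3a1 were detected on none of the 4 arrays, and Col1a1 on 1 capsule array. The summed linear level of the 9 measured genes was 480 and 487 on the lavage arrays and 2284 and 2446 on the capsule arrays. Lox held the largest part of the capsule sums, which count neither Col1a2 nor Col3a1. Of the myofibroblast and smooth muscle list, 7 genes were measured, 2 of them higher and 1 lower. Tpm2, a tropomyosin of the actin cytoskeleton, read 5.93 and 6.54 and then 9.52 and 9.77 (difference 3.41, SE 0.22, adjusted p 1.11e-07). Tagln and Myh11, which define smooth muscle, were not detected on any of the 4 arrays. Acta2, the smooth muscle actin gene, read 8.38 and 8.69 in lavage and 7.96 and 7.29 in the capsule (difference -0.91, adjusted p 0.016), and its call was lost without capsule day 7 replicate 2, without lavage day 4 replicate 2 and with the deposited log2 values. In these bulk samples a larger share of such cells and more RNA per cell cannot be told apart, and the part of other cell types in the rises of matrix genes was not tested.

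Endothelial markers moved unevenly. Vwf, the von Willebrand factor gene, read 6.17 and 6.07 in lavage and 9.58 and 10.33 in the capsule (difference 3.84, SE 0.24, adjusted p 9.35e-08), and the adhesion gene Pecam1, which myeloid cells can express too, read 7.46 and 8.45 and then 11.08 and 11.49 (difference 3.33, SE 0.28, adjusted p 1.63e-06; 1.83 and 3.18 on other probes). Both were also higher at lavage day 7 than at lavage day 4, Vwf by 2.51 and Pecam1 by 2.48. Of 9 measured genes 3 rose and 0 fell, with a median of 0.33, or 0.02 under median scaling. The receptor gene Kdr differed by 0.33 (adjusted p 0.42), and the junction gene Cdh5 was detected on 1 capsule array and no lavage array. Of 7 measured mesothelial genes 1 rose and 1 fell, and neither passed without capsule day 7 replicate 1 or without lavage day 4 replicate 1. Of the defining markers of mesothelium, Upk3b was not detected on any of the 4 arrays and Msln was detected on all 4. Wt1, a further one, was detected on 1 lavage array and both capsule arrays.

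Genes of cell fusion and of osteoclasts, the fused bone-resorbing relatives of macrophages, rose strongly. Of 12 measured, 8 rose and 1 fell, with a median of 0.66. Ocstamp, a membrane protein gene needed for osteoclast fusion in the mouse, read 6.95 and 7.01 on the lavage arrays and 12.37 and 12.30 on the capsule arrays (difference 5.36, SE 0.39, adjusted p 3.8e-07), and its other probe read 2.09, also called. Dcstamp, its partner in the fusion of macrophages and osteoclasts, read 7.05 and 7.35 and then 9.04 and 9.17 (difference 1.91, SE 0.18, adjusted p 4.73e-06). Both genes separated the groups, with Ocstamp showing the wider gap. Ctsk, the collagen-degrading cathepsin of osteoclasts, read 10.16 and 9.74 in lavage and 14.02 and 14.34 in the capsule (difference 4.23, SE 0.27, adjusted p 1.17e-07). Car2, the carbonic anhydrase that supplies acid to osteoclasts, was not detected in lavage and was at least 9.29-fold higher in the capsule (adjusted p 1.67e-07). Nfatc1, the master factor of osteoclast formation, was the member that fell, by 0.66 (adjusted p 0.0048), but it did not pass without capsule day 7 replicate 1, nor did 4 of its other probes. Cd47, a ligand that takes part in macrophage fusion, differed by 0.18 (adjusted p 0.522).

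Adhesion receptors changed in both directions, with 7 of 15 measured higher and 3 lower and a median of 0.68. Vcam1, a ligand of the integrin alpha 4 chain, read 5.87 and 6.03 in lavage and 8.95 and 8.74 in the capsule (difference 2.89, SE 0.22, adjusted p 6.39e-07). Itgax, the CD11c integrin chain, read 8.73 and 8.98 and then 11.42 and 11.54 (difference 2.62, SE 0.27, adjusted p 7.97e-06; 1.65 on its other probe). Itgb3, the integrin chain that pairs with the alpha V chain in osteoclasts, rose by 2.47, with 1 of 2 lavage arrays detecting it, and the heparan sulphate proteoglycan gene Sdc4 rose by 2.13. Leukocyte integrin Itgal fell by 1.89 (adjusted p 0.000643) and the laminin receptor chain Itga6 by 1.41 (adjusted p 0.000359), with other probes of Itga6 from -2.27 to -0.76, the last not called.

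Genes that mark lipid-laden tissue macrophages formed a further group of risers, 8 higher and 1 lower of 11 measured, with a median of 0.91; 5 rose without capsule day 7 replicate 1. Fabp5, a fatty acid carrier, read 8.39 and 8.41 on the lavage arrays and 10.79 and 10.86 on the capsule arrays (difference 2.43, SE 0.22, adjusted p 2.86e-06). Gpnmb, a transmembrane glycoprotein of lipid-associated macrophages, read 13.71 and 13.46 and then 15.16 and 15.09 (difference 1.55, SE 0.21, adjusted p 0.000101), and its 3 other probes read 2.95, 3.25 and 3.91, all called. The lipid-sensing receptor gene Trem2 rose by 1.23 and the tetraspanin gene Cd63 by 1.88. Apoe, the apolipoprotein that carries cholesterol out of macrophages, went the other way, from 14.91 and 14.45 to 13.08 and 13.11 (difference -1.59, SE 0.24, adjusted p 0.000254). Its neighbours in the apolipoprotein cluster fell too, Apoc4 by 2.03 and Apoc2 with an adjusted p of 0.000141, as did Pltp, a phospholipid transfer protein gene, by 1.17; these were the 3 that fell of 7 lipid efflux and nuclear receptor genes, of which 0 rose. The transporter gene Abca1 differed by -0.10 (adjusted p 0.889), and the list's median, -0.10, was 0.24 without capsule day 7 replicate 2 and 0.04 without lavage day 4 replicate 2.

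Of 14 measured genes of cholesterol synthesis, 8 rose and 0 fell, with a median of 0.61. Sqle, which makes squalene epoxide, read 11.41 and 11.44 in lavage and 12.71 and 12.79 in the capsule (difference 1.33, SE 0.19, adjusted p 0.000133), and Dhcr7, which acts in the last steps, rose by 1.20. Ch25h, the enzyme gene for 25-hydroxycholesterol, which restrains cholesterol synthesis, was one of the 12 largest rises. It read 7.42 and 7.27 in lavage and 12.36 and 13.05 in the capsule (difference 5.36, SE 0.26, adjusted p 1.26e-08). Of 22 lysosomal genes 8 rose and 1 fell, with a median of 0.33. The one that fell was the cathepsin gene Ctsa, with a difference of -1.28. Its probes disagreed: the others read 0.88, called higher (adjusted p 0.00169), and 0.15 (adjusted p 0.688). Atp6v1a, a subunit of the proton pump, rose by 0.93 (1.82 on another probe) and Ctsz, a cathepsin, by 0.86. Without capsule day 7 replicate 2 the lysosomal count was 4, and without lavage day 4 replicate 1 it was 5.

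Growth factors for vessels and matrix were higher, 8 of 12 measured rising and 0 falling, with a median of 1.09. Vegfa, the main vessel growth factor, read 9.19 and 10.10 on the lavage arrays and 13.44 and 13.36 on the capsule arrays (difference 3.75, SE 0.28, adjusted p 4.83e-07). Igf1, an insulin-like growth factor that macrophages make during repair, read 10.49 and 10.69 and then 12.97 and 13.15 (difference 2.47, SE 0.23, adjusted p 3.78e-06). Tgfb3 was not detected in lavage and was at least 6.69-fold higher in the capsule (adjusted p 1.18e-07), whereas Tgfb1 differed by 0.15 (adjusted p 0.703).

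Genes that cells switch on at low oxygen, together with the glycolytic enzymes, showed 13 risers and 0 fallers among 18 measured, with a median of 0.80. Ndrg1, a hypoxia-responsive gene, read 9.55 and 9.87 in lavage and 13.23 and 12.91 in the capsule (difference 3.36, SE 0.21, adjusted p 8.85e-08). Slc2a1, the glucose transporter GLUT1, read 11.45 and 11.62 and then 13.71 and 13.49 (difference 2.07, SE 0.21, adjusted p 9.47e-06). Hk2, the hexokinase that commits glucose to glycolysis, rose by 1.42 and the hypoxia target Ankrd37 by 2.34. Some other enzymes of the list were closer between the groups, with Ldha at 0.18 (adjusted p 0.368) and Gapdh at 0.08 (adjusted p 0.715). The 20 measured respiratory chain genes had a median of -0.01 (-0.11 without capsule day 7 replicate 1), with 0 higher and 1 lower, Ndufa4 (fell by 0.64, adjusted p 0.00353).

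The promoters of Slc2a1 and Hk2 are shown because both genes take up or trap glucose and rose, and capitals mark matches to GACGTG, the core of the hypoxia response element, or to its reverse complement. The sequences are again the 250 bases before the RefSeq start on build GRCm38.p6, on the strand of the gene: Slc2a1 at chr4:119108495-119108744 on the plus strand and Hk2 at chr6:82774455-82774704 on the minus strand.
Slc2a1: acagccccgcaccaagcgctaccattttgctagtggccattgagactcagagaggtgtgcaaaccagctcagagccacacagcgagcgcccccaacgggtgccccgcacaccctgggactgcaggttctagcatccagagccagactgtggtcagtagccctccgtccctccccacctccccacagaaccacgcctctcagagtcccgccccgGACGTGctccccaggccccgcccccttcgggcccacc
Hk2: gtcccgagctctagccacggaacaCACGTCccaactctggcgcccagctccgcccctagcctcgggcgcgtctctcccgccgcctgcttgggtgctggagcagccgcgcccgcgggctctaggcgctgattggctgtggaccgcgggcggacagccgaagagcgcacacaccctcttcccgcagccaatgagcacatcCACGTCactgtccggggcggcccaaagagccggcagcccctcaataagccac
On both strands, the motif was found in the windows of 8 of 17 glycolysis and hypoxia genes with a promoter in the table and in 8.62% of the 8784 tested genes. Hk2 held 2 matches and Slc2a1 held 1. A further 3 motifs were searched in the same way: an E2F motif (TTTCCCGC) was in 2 of 15 DNA replication genes, 0 of 10 mitosis genes and 1.92% of all, a metal response element (TGCGCNC) in 1 of 4 metallothionein list genes and 23.9% of all, and a heat shock element (the triplets GAA, TTC and GAA, each 2 bases apart) in 1 of 10 chaperone genes and 0.444% of all.

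Genes of alternative activation, the state that interleukin 4 induces, were higher in the capsule, with 11 of 15 measured rising and 0 falling and a median of 1.11. Pdcd1lg2, the checkpoint ligand PD-L2, read 6.70 and 6.83 on the lavage arrays and 10.32 and 10.46 on the capsule arrays (difference 3.62, SE 0.20, adjusted p 3.87e-08). Flt1, a receptor for vessel growth factors, reached 12.72 and 12.74 in the capsule, 3.86 above lavage (SE 0.30, adjusted p 8.08e-07), but its other probe read 0.52 and did not pass (adjusted p 0.0668). The lectin receptor gene Mgl2 rose by 1.99 (2.75 on another probe) and the beta-glucan receptor gene Clec7a by 1.17. A pair of well known members was bright in both places: Arg1 read 15.65 and 15.60 in lavage and 15.85 and 15.74 in the capsule (difference 0.18, adjusted p 0.367), and Retnla differed by 0.27 (adjusted p 0.191). Both genes lie near the top of the scale on all 4 arrays.

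Rnase2a, an eosinophil-type ribonuclease that macrophages can also make, rose from 11.47 and 12.09 to 15.47 and 15.56 (difference 3.73, SE 0.17, adjusted p 9.02e-09). The eosinophil markers Prg2 and Epx were each detected on 1 of the 4 arrays and Siglecf on none. Of the same list, Ccr3 was detected on both lavage arrays and 1 capsule array, and Il5ra on both lavage arrays and no capsule array. Of the 3 eosinophil genes measured, Rnase2a among them, 1 rose and 1 fell, and 0 fell with the deposited log2 values. Slc7a2, a transporter of arginine, rose from 11.54 and 11.45 to 14.07 and 14.35 (difference 2.71, SE 0.24, adjusted p 1.95e-06), with 2.69, 4.19 and 5.22 on other probes, and Srm, which makes the polyamine spermidine, fell by 1.33 (adjusted p 6.43e-05). Of 9 arginine and polyamine genes 4 rose and 1 fell, and 2 rose whichever of the 4 arrays was left out.

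Metal-binding and iron genes showed a split. Mt2, a metallothionein that binds zinc, read 7.26 and 7.53 in lavage and 10.77 and 10.62 in the capsule (difference 3.30, SE 0.17, adjusted p 1.42e-08). Mt3 rose by 2.51 and Mt1 by 1.03, and the list's remaining gene, the zinc exporter Slc30a1, fell by 0.51 (adjusted p 0.0139). That fall did not pass without capsule day 7 replicate 2, without lavage day 4 replicate 1 or on the gene's other probe (-0.14). Hmox1, which breaks down haem, rose from 12.74 and 13.04 to 14.24 and 14.26 (difference 1.36, SE 0.24, adjusted p 0.000793). Slc40a1, the iron exporter ferroportin, read 9.45 and 10.36 in lavage, was not detected in the capsule, and was at least 18.5-fold lower there (adjusted p 1.88e-07). Of the 12 iron and haem genes, 3 rose and 1 fell.

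**Figure D3:**
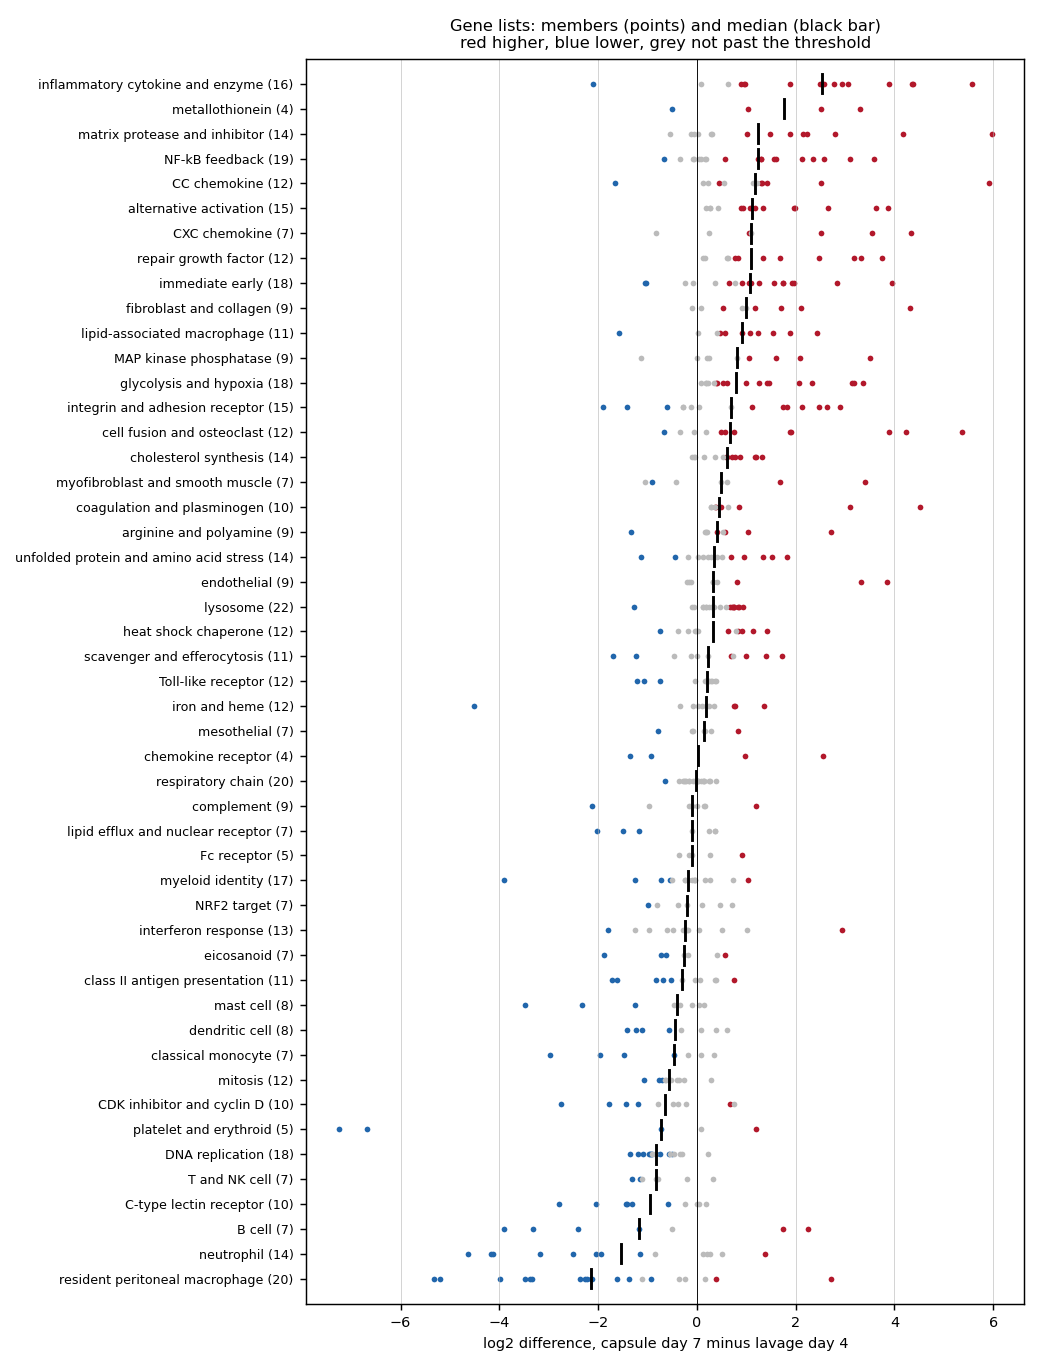
Log2 differences (capsule day 7 minus lavage day 4, horizontal) of the measured members of each gene list with at least 4 measured genes, given in parentheses. Each point is a gene, red if it rose, blue if it fell and grey if it did not pass, and the black bar is the list's median; the inflammatory cytokine list has the highest median (2.53) and the resident peritoneal macrophage list the lowest (-2.14). Genes not detected in a group are drawn at their fitted value.

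Genes that mark resident peritoneal macrophages were lower in the capsule: 14 of 20 measured fell and 2 rose, with a median of -2.14, and 1 rose whichever of the 4 arrays was left out and under median scaling. Tgfb2, a growth factor gene bright in resident peritoneal macrophages, read 11.54 and 10.64 on the lavage arrays and 5.76 and 5.77 on the capsule arrays (difference -5.33, SE 0.53, adjusted p 6.43e-06), while its other probe read -2.06, also called. Wnt2, a secreted ligand of the Wnt family, read 10.89 and 9.86 and then 6.23 and 6.54 (difference -3.98, SE 0.41, adjusted p 9.98e-06). Timd4, a receptor for phosphatidylserine on dying cells, read 12.70 and 12.43 in lavage and 10.44 and 10.23 in the capsule (difference -2.23, SE 0.23, adjusted p 1.05e-05). The groups were apart for all 3, and Timd4 kept a clear signal in the capsule while Tgfb2 came near the floor.

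Gata6, the factor that sets the identity of these macrophages, read 12.71 and 12.37 in lavage and 10.93 and 11.40 in the capsule (difference -1.38, SE 0.27, adjusted p 0.00178). Alox15, a lipoxygenase of resident cells, fell by 3.48 and the adhesion gene Icam2 by 2.13. Ltbp1, which holds latent TGF-beta in the matrix, read 12.05 and 10.93 and then 6.62 and 5.95 (difference -5.21, SE 0.48, adjusted p 3.47e-06), but its probes disagreed: the 4 others read 0.60 (adjusted p 0.00438), -0.19, -0.44 and -1.96. Lyve1, a hyaluronan receptor of tissue macrophages, moved against the list, from 11.26 and 10.92 to 13.76 and 13.85 (difference 2.71, SE 0.28, adjusted p 8.39e-06), and the other riser was the clotting factor gene F10 (0.39, adjusted p 0.0434). The general macrophage marker Adgre1 differed by -0.37 (adjusted p 0.056). The list's summed linear level was 146800 and 108471 on the lavage arrays and 73614 and 76478 on the capsule arrays.

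Neutrophil genes fell. Of 14 measured, 8 fell and 1 rose, with a median of -1.55 (-1.45 with undetected genes at their bound). S100a9, a subunit of calprotectin, read 14.01 and 14.60 in lavage and 10.34 and 8.99 in the capsule (difference -4.64, SE 0.50, adjusted p 1.25e-05). Its partner S100a8 read 14.86 and 15.04 and then 11.93 and 11.62 (difference -3.18, SE 0.24, adjusted p 4.87e-07). Cxcr2, the receptor for Cxcl1 and Cxcl2, read 10.14 and 10.57 in lavage and 6.83 and 5.55 in the capsule, where 1 of 2 arrays detected it (difference -4.17, SE 0.36, adjusted p 1.69e-06). Ligands and receptor of this axis thus moved in opposite directions on the same arrays. Lcn2, which withholds iron from bacteria, was not detected in the capsule and was at least 11.1-fold lower (adjusted p 3.47e-06). Mmp8, the neutrophil collagenase, was the member that rose, at least 1.59-fold from no detection in lavage (adjusted p 0.000175). Granule genes of immature neutrophils were low throughout, with Mpo and Ngp detected on none of the 4 arrays. The summed linear level of the 14 genes was 64324 and 77377 in lavage and 13083 and 10803 in the capsule.

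Genes of recruited monocytes were lower as well, with 4 of 7 measured falling and 0 rising. Ccr2, the receptor that brings monocytes into tissue, read 10.11 and 10.15 in lavage and 8.70 and 8.60 in the capsule (difference -1.48, SE 0.28, adjusted p 0.00136). Hp, the haptoglobin gene, fell by 2.98 (adjusted p 1.4e-06). The count was 2 without capsule day 7 replicate 2 or without either lavage array. Cx3cr1, the fractalkine receptor of patrolling monocytes and some tissue macrophages, read 9.78 and 9.69 and then 6.06 and 5.61, with 1 of 2 capsule arrays detecting it (difference -3.90, SE 0.25, adjusted p 1.23e-07). Lyz1, a lysozyme gene whose probe may share signal with its close relative Lyz2, fell from 14.01 and 14.05 to 10.27 and 10.19 (difference -3.80, SE 0.32, adjusted p 1.61e-06).

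Of 10 genes on the C-type lectin receptor list 6 fell and 0 rose, with a median of -0.94 (-0.81 with undetected genes at their bound). Mgl2 and Clec7a, lectin receptor genes counted with alternative activation above, rose. Clec4n, the gene of the fungal sensor dectin-2, read 11.88 and 11.78 in lavage and 9.09 and 8.97 in the capsule (difference -2.80, SE 0.30, adjusted p 1.42e-05), and its neighbour Clec4d fell by 1.44. Of 12 genes of Toll-like receptors and their partners, 3 fell and 0 rose, with a median of 0.20 that turned to -0.13 under median scaling and was 0.11 without either lavage array. Tlr2, a sensor of bacterial lipoproteins, fell by 1.08 (adjusted p 0.000467) and Myd88, the shared adaptor, by 0.74 (adjusted p 0.00321), while Tlr4 differed by 0.29 (adjusted p 0.121). Among genes for the clearance of dying cells, Mfge8, a bridge to phosphatidylserine, rose by 1.72. Axl, a receptor of the same pathway, fell by 1.70 and Pros1, a ligand of that receptor family, by 1.23. That scavenger list had 4 risers and 2 fallers of 11 measured, a median of 0.23 that turned to -0.16 under median scaling (0.09 and 0.08 without lavage day 4 replicates 1 and 2), and 2 risers without capsule day 7 replicate 2 or lavage day 4 replicate 1.

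Replication genes were lower in the capsule, with 11 of 18 measured falling and 0 rising and a median of -0.83. The falls included subunits of the helicase that opens DNA. Mcm7 read 11.26 and 11.16 on the lavage arrays and 9.88 and 9.84 on the capsule arrays (difference -1.35, SE 0.20, adjusted p 0.000197), and another of its probes read -0.56 (adjusted p 0.0717). Mcm2 read 10.54 and 10.11 and then 9.19 and 9.28 (difference -1.09, SE 0.17, adjusted p 0.000275), and Mcm5 fell by 1.20. The polymerase clamp gene Pcna differed by 0.23 (adjusted p 0.32). The count was 7 without capsule day 7 replicate 2 and 6 without lavage day 4 replicate 1. Of 12 mitosis genes 3 fell and 0 rose, a count that was 1 and 0 without those same arrays.

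All 3 D-type cyclins, which start the cell cycle, fell. Ccnd2 read 12.52 and 12.34 in lavage and 9.77 and 9.57 in the capsule (difference -2.76, SE 0.33, adjusted p 3.51e-05). Ccnd1 fell by 1.78 (adjusted p 3.46e-05) and Ccnd3 by 1.20 (adjusted p 0.000256). Each of the 3 genes also had a probe that did not pass, at -0.82 for Ccnd2, -0.24 for Ccnd1 and -0.39 for Ccnd3. At lavage day 7, Ccnd1 and Ccnd2 were also lower than at lavage day 4, by 1.96 and 2.49 respectively.

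Antigen presentation genes showed 5 fallers and 1 riser among 11 measured, with a median of -0.31 (-0.57 without capsule day 7 replicate 1 and -0.04 without replicate 2). The riser did not pass without capsule day 7 replicate 2 or lavage day 4 replicate 2, and the fallers numbered 2 without capsule day 7 replicate 2 or without lavage day 4 replicate 1. Cd86, a costimulatory ligand of T cells, read 12.18 and 12.36 in lavage and 10.66 and 10.42 in the capsule (difference -1.73, SE 0.17, adjusted p 4.73e-06). Ciita, the transactivator of class II genes, fell by 1.61 (adjusted p 0.00125), though its other probe read -0.18 (adjusted p 0.47) and that of Cd86 -0.94, while the class II chain gene H2-Ab1 differed by -0.31 (adjusted p 0.162). Alox5, the enzyme that starts leukotriene synthesis, read 12.57 and 11.98 and then 10.40 and 10.38 (difference -1.89, SE 0.19, adjusted p 7.68e-06). Its partners Ltc4s and Alox5ap fell by 0.74 and 0.63, which makes 3 fallers among 7 eicosanoid genes, with 1 riser that did not pass without capsule day 7 replicate 2, without either lavage array or under median scaling. Of 13 interferon response genes 1 rose and 1 fell, with a median of -0.24, or -0.02 without capsule day 7 replicate 2. The one that fell was Gbp3, an interferon-induced GTPase gene (difference -1.80, adjusted p 5.29e-05). The test found no riser in that list without capsule day 7 replicate 1.

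Among markers of lymphocytes and mast cells, only the B cell genes included any that rose. Cd79a, a chain of the B cell receptor, read 8.70 and 9.33 in lavage, was not detected in the capsule and was at least 9.94-fold lower (adjusted p 6.62e-07), and Pou2af1, a B cell coactivator, was at least 6.33-fold lower (adjusted p 1.29e-07). Blnk, an adaptor that macrophages also use, rose by 1.75 and the lectin gene Cd22 by 2.24. In all, 4 of 7 B cell genes fell and 2 rose, and their summed linear level was 4278 and 4852 in lavage and 8109 and 7931 in the capsule. Of 8 mast cell genes 3 fell and 0 rose. Cpa3 and Cma1, proteases of mast cells, were detected on both lavage arrays and on no capsule array, at least 3.71-fold and 1.62-fold lower there (adjusted p 0.000114 and 0.000111), while another probe of Cpa3 read -0.62 (adjusted p 0.0163). Of 7 T and natural killer cell genes 2 fell and 0 rose, and 1 fell without either capsule array or without lavage day 4 replicate 2. The T cell gene Cd2 fell by 1.31, and Ncr1, which marks natural killer cells, was not detected on any of the 4 arrays. The part of these cell types in the other falls was not tested.

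Haemoglobin transcripts made the largest falls. Hbb-bs read 12.97 and 12.29 on the lavage arrays, was not detected in the capsule and was at least 122-fold lower there (adjusted p 7.71e-05). Hba-a1 read 12.27 and 11.71 and was at least 78.3-fold lower (adjusted p 0.000195). Hbb-bt read 13.11 and 12.29 in lavage and 5.88 and 5.60 in the capsule, where 1 array detected it (difference -6.96, SE 1.03, adjusted p 0.000209), and another of its probes read -1.84. Haemoglobin probes may share signal among their close relatives, and red cells or their precursors among the sorted cells were not tested.

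A few lists moved in both directions. Among 14 genes of the unfolded protein and amino acid stress responses 5 rose and 2 fell, with a median of 0.35 that turned to -0.04 under median scaling, and 2 rose without capsule day 7 replicate 2. Trib3, a stress-induced pseudokinase gene, rose by 1.82 (1.09 on another probe) and Pdia4, a disulphide isomerase, by 1.34, while Chac1, which degrades glutathione, fell by 1.14. Of 9 complement genes 1 rose and 1 fell: C3ar1, the receptor of an anaphylatoxin, rose by 1.21, and Cd55, which protects cells from complement, read 8.21 and 7.97 in lavage and 5.94 and 5.97 in the capsule (difference -2.13, adjusted p 2.76e-05). Among 8 dendritic cell genes 4 fell and 0 rose, or 2 and 1 without capsule day 7 replicate 1. The transcription factor gene Irf4 fell by 1.23 and the actin bundler Fscn1 by 1.42. Of the defining genes, Flt3 and Xcr1 were not detected on any of the 4 arrays, while Zbtb46 was detected on all 4.

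The remaining genes with the largest differences belong to no single group. Wwc1, the gene of the scaffold protein KIBRA of the Hippo pathway, was not detected in lavage, read 11.31 and 11.55 in the capsule and was at least 51.7-fold higher (adjusted p 7.31e-11). Htr2b, a serotonin receptor gene, was not detected in lavage either and was at least 23.96-fold higher (adjusted p 3.69e-08). Mgarp, a mitochondrial protein gene, read 6.76 and 6.98 and then 11.55 and 11.42 (difference 4.62, SE 0.22, adjusted p 1.2e-08). Prss46, a serine protease gene, rose by 4.43. On the other side, the probe of Vmn2r26, annotated as a vomeronasal receptor, read 11.50 and 10.54 in lavage and 7.32 and 6.94 in the capsule (difference -3.89, SE 0.41, adjusted p 1.05e-05). A second probe of Wwc1 read 4.19, also called.

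**Figure D4:**
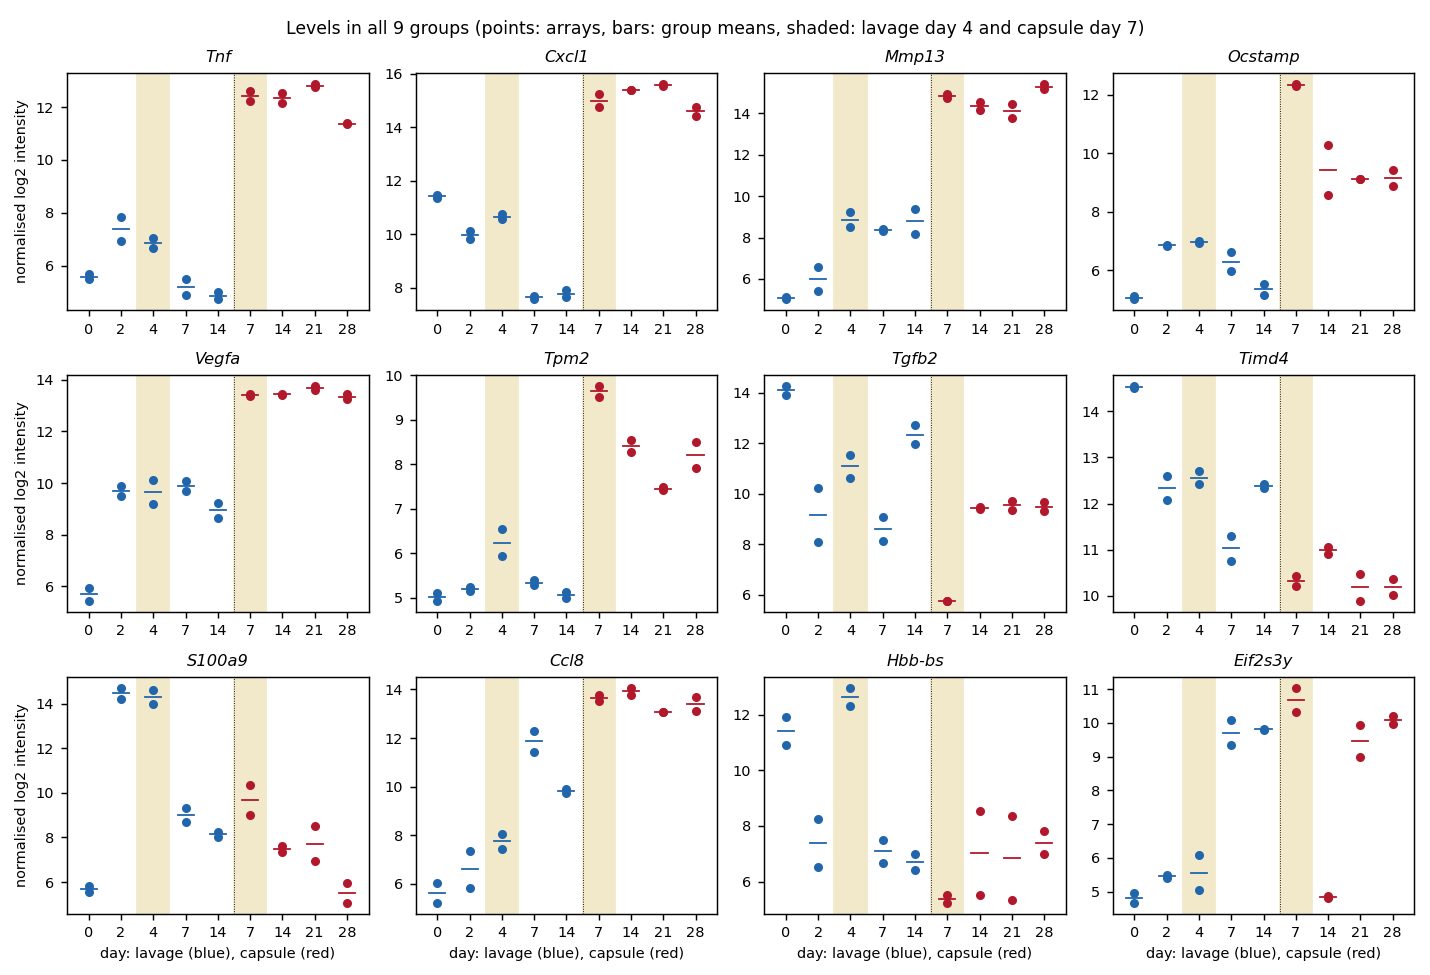
Levels of 12 genes in all 9 groups of the series, in normalised log2 intensity, by day of lavage (blue) or capsule (red); points are the 2 arrays of a group, bars their mean, and the compared groups are shaded. Tnf, Cxcl1, Mmp13 and Vegfa are high in every capsule group, Ocstamp and Tpm2 are highest at capsule day 7, Tgfb2 is lowest there, and S100a9 is high at lavage day 2 and day 4.

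Because the day differs along with the place, the same genes are also given for the cells washed from the cavity at day 7, from mice of the same strain, age and implant. Both added comparisons reuse arrays of the first, so their values are set side by side and are no separate support. Against lavage day 7, capsule day 7 had 2603 changed genes (24.1%), 1256 higher (11.6%) and 1347 lower (12.5%), and 1693 in all without lavage day 7 replicate 2. Between lavage day 7 and lavage day 4, 1110 genes changed (10.3%), 474 higher (4.39%) and 636 lower (5.89%) at day 7, and 575 to 634 with any 1 of those 4 arrays left out. Tnf was 7.24 higher in the capsule than in lavage day 7, and lavage day 7 was 1.66 below lavage day 4. Mmp13 was 6.49 higher than in lavage day 7 (lavage day 7 against day 4, -0.52, adjusted p 0.5), Ocstamp 6.05 higher (-0.69, adjusted p 0.31) and Ndrg1 3.67 higher (-0.31, adjusted p 0.41).

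Other genes had the larger value between the cavity days; whether the 2 values of a gene differ was not tested. In the capsule Rnase2a lay close to Arg1, near the top of the scale. It was 0.08 higher there than in lavage day 7 (adjusted p 0.78), and 3.65 higher at lavage day 7 than at day 4. Ccl8 was 1.79 and 4.12 higher in these comparisons, Lyve1 -0.47 and 3.18, and Slc7a2 0.58 and 2.14. Among the fallers, S100a9 was 0.64 above lavage day 7 in the capsule (adjusted p 0.4), while lavage day 7 lay 5.28 below lavage day 4; Hbb-bs, Cxcr2 and Slc40a1 likewise had their wider gap between the lavage days. Tgfb2 showed both, -2.86 against lavage day 7 and -2.47 between the lavage days. Clec4n and Tlr2 had opposite signs: each was higher in the capsule than in lavage day 7, by 1.10 and 1.48, and lower at lavage day 7 than at day 4, with differences of -3.90 and -2.56. For the resident macrophage list the medians were -0.59 against lavage day 7 and -0.85 between the lavage days. For the inflammatory cytokine list they were 2.92 and -0.17, for the glycolysis and hypoxia list 0.62 and 0.05, and for the DNA replication list -0.94 and 0.15.

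**Figure D5:**
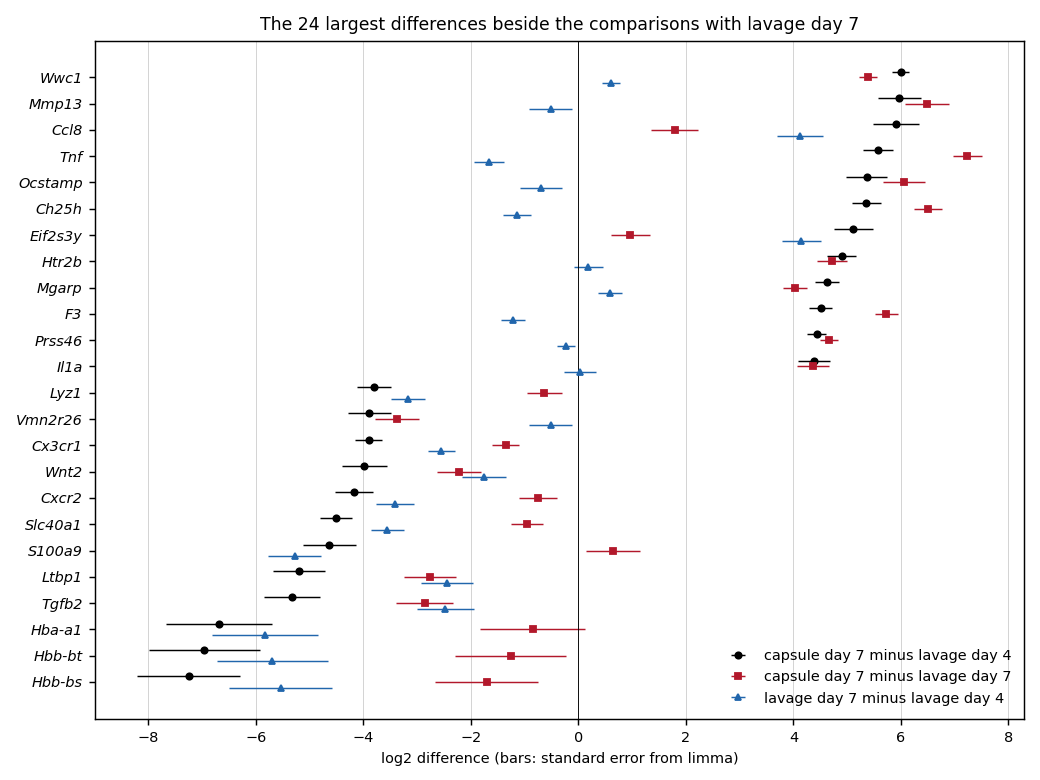
Log2 differences with their standard errors for the 12 largest rises and 12 largest falls of capsule day 7 against lavage day 4 (black circles), beside capsule day 7 against lavage day 7 (red squares) and lavage day 7 against lavage day 4 (blue triangles). Mmp13, Tnf and Ocstamp have their red point near or beyond the black one, whereas Ccl8, Eif2s3y, S100a9, Slc40a1 and the haemoglobin genes have their blue point nearer to it. Genes not detected in a group are drawn at their fitted value.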

How the data were processed

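RNA of sorted cells was hybridised to Illumina mouse bead arrays, 18 arrays in 9 groups of 2. The authors deposited non-normalized probe intensity values with a detection p-value beside each, per the file headers, and a table of log2 values of the same arrays, used here only as an alternative. On each array the deposited log2 values ranked the probes almost as the intensities did (rank correlation 0.999984 at the lowest). The submitters' processing notes name BeadStudio and R 2.15.3, with no role given. For the deposited log2 table, no source used here gives the background correction.

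Intensities were background corrected and quantile normalised with neqc (limma 3.58.1, R 4.3.3, offset 16) over the 18 arrays. A probe was kept if at least 1 group detected it at p under 0.05 on each of its arrays, which left 20985 of 46632. Of all probes, 29976 had 1 gene symbol, 10 several and 16646 none; each gene was read from its brightest kept probe, which gave 10806 genes. Log2 values were fitted with limma as group means over all 18 arrays, which share one estimate of the spread (9 residual degrees of freedom). P-values were adjusted by Benjamini-Hochberg over the 10806 genes in each of 3 comparisons, with a threshold of 0.05. The steps were tested on simulated data. Array values carry no read depth: the 2 arrays per group limit the precision.

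The genes named are the 12 largest rises and 12 largest falls, ranked by their bound where a group did not detect them, and up to 4 changed members per direction of each of 50 gene lists with the smallest p. Unchanged members and defining markers are given as values only. The comparison, its gene lists (728 genes, 559 tested) and its tests were chosen with earlier results of these data known. Promoter sequences are from RefSeq (GRCm38.p6). Replicate numbers mark slides 1 and 2 in 6 groups. The compared arrays thus share slides by number. The deviations of same-numbered arrays correlated at -0.11 to 0.13 over 15 pairs of groups, and at 0.02 for capsule day 7 with lavage day 4. No strong shared slide effect was seen, and no block was fitted. With 2 arrays per group, these values cannot show that the arrays are unpaired. Alternatives changed the background correction, normalisation, values, filter, probe, arrays, block and prior.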

Additional observations from a re-analysis of the deposited data

How the results depend on the processing

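Under the alternatives other than leaving out an array, the count of genes changed between capsule day 7 and lavage day 4 ran from 2689 to 4286, against 2990, except that asking for at least a 2-fold difference left 1170 (1079 against lavage day 7, and 424 between lavage days 7 and 4). Leaving out 1 array gave 1864 to 2171, 1693 to 1850 and 575 to 634 in the same order. With the replicate block, on the 12 arrays of slides 1 and 2, the counts were 2834, 2441 and 963, against 2959, 2539 and 1020 without it. That block stands for the slide. Median scaling put 27.04% of the calls against lavage day 7 on the higher side, against 48.3%, and 28.3% between the lavage days, against 42.7%; the cause was not tested. Of 210 named genes, 157 kept their call under each alternative outside other probes, the 4 compared arrays fitted alone and detection on all 4 arrays, and 53 lost it under at least 1. Over 70 genes with other named probes, the sign turned for Cd180 (0.49), Ctsa (0.88 and 0.15), Dnajb4 (-0.11), Itgb1 (0.0917) and Ltbp1 (0.60). The list medians moved by more than the replicate spread in 145 recomputed values and by less in 305. Normalising the 12 arrays of slides 1 and 2 alone was chosen after seeing the data. Probes near background limit the low genes, whose folds are bounds only.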
